A study of Homo sapiens with 6 samples.

Results

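The transcripts of 10 genes that encode phosphodiesterases hydrolysing cAMP (PDE3A, PDE3B, PDE4A, PDE4B, PDE4D, PDE7A, PDE7B, PDE8A, PDE8B and PDE10A) were examined in MDA-MB-231 cells. They are 10 of the 26255 gene symbols in the expression table, and 9 of them passed the filter on low values; PDE3A did not. The genes were chosen by their FPKM in these libraries and by the low PDE3B in shGPR81 libraries, so their levels and differences are given as a description, without a test. FPKM (fragments per kilobase of transcript, scaled to library size) is a level per transcript length, which allows levels of different genes to be set side by side.

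MDA-MB-231 is a human triple negative breast cancer cell line. RNA-seq was performed on 3 libraries of cells with a control hairpin (shNT) and 3 libraries of cells with a hairpin against GPR81 (shGPR81), a lactate receptor whose gene is now called HCAR1. Both hairpins were introduced with lentiviral particles and infected cells were kept under drug selection, so the control cells also carry an integrated virus. The methods describe 2 GPR81 hairpins and do not name the one in the sequenced cells. Nothing states that the libraries of a group came from separate cultures, so p-values measure only the spread between these libraries, which may be technical.

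cAMP is made from ATP by adenylyl cyclases, which stimulatory G proteins activate and inhibitory G proteins restrain, and it acts through protein kinase A (PKA), EPAC exchange factors and a few other receptors. Phosphodiesterases end the signal by hydrolysing cAMP, and their families differ in affinity, regulation and place in the cell. GPR81 couples to inhibitory G proteins, and in fat cells, where PDE3B is best known as the enzyme through which insulin restrains lipolysis, both lower cAMP.

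The places that the hairpins recognise are shown first because they define the shGPR81 group. Both lie in the coding sequence of HCAR1, a single-exon transcript on the minus strand of chromosome 12 (GRCh37). The target of shGPR81 #1 is at chr12:123213902-123213922 and that of shGPR81 #2 at chr12:123214159-123214179. The sequences are those of the GENCODE transcript, 5′ to 3′ on the sense strand, and capitals mark the bases that pair with guide bases 2 to 8.
shGPR81 #1: gttgcatcagtgtGGCAAATa
shGPR81 #2: cgtgtctgctagaCTCTATTt
In the longest PDE3B transcript (5995 bases), the longest unbroken run shared with the target of shGPR81 #1 was 8 of 21 bases, a length reached or passed in 54.8% of 13714 tested genes with a transcript. For shGPR81 #2 the run was 7 bases, reached or passed in 84.0%. The word in capitals of shGPR81 #1 occurred 1 time in that PDE3B transcript, as it did at least once in 21.1% of the tested genes, and it was also in PDE3A, PDE4D, PDE7A, PDE8A and PDE10A. The word of shGPR81 #2 was not found in PDE3B, and among the 10 genes it occurred in PDE3A and PDE10A.

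Promoters were searched for the cAMP response element because CREB, a transcription factor that PKA phosphorylates, binds it. The search covered 30 windows of 300 bases at RefSeq start sites (GRCh38.p14), for 8 of the 10 genes. Each window ran from 250 bases before the start to 50 after it. The only window for PDE3A was at chr12:20571829-20572128 (plus strand), so any other start site of that gene was not searched. No window of PDE3B or PDE7A was among the 30, so the promoters of these genes were not searched. The full element TGACGTCA, which reads the same on both strands, was in 2 of these 30 windows and in 1.85% of 35116 windows of all genes. The shorter words TGACG and CGTCA, which the full element contains, were in 3 of the 30 windows and in 24.6% of all windows. The windows of a gene can overlap, so they are not independent. Both windows with the full element are printed with it in capitals. The PDE4A window, the most upstream of 5 for that gene, is at chr19:10416523-10416822 (plus strand), and its element began 3 bases before the start site. The PDE7B window is at chr6:135851451-135851750 (plus strand), and its element began 155 bases before the start site.
PDE4A: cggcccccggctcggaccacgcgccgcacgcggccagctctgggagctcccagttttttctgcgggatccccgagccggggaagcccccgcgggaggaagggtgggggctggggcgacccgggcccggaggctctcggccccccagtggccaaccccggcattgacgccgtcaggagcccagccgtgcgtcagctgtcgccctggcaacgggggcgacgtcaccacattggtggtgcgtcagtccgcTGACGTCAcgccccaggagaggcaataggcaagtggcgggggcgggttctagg
PDE7B: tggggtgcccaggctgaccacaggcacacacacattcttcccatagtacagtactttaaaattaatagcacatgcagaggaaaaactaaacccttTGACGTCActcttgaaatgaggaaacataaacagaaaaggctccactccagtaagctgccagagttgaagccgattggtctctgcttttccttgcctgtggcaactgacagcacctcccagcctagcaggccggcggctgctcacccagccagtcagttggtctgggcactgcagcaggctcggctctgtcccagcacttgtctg
A match describes the letters only. No binding was measured, and the PDE4A level overlapped between groups while the PDE7B level did not, as given below.

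Depth was not given with the values. In 40.2% of the 14864 genes above 0 in at least 5 libraries the FPKM were whole multiples of 1 step, which gave relative depths of 1 to 1.07 and about 12160000 to 13010000 reads per library. HCAR1, the targeted gene, was at 0.968, 1.02 and 1.36 FPKM in shNT and at 0.978, 0.891 and 0.396 FPKM in shGPR81. The groups overlapped, and the log2 difference was -0.57 ± 0.31 (SE; limma, Benjamini-Hochberg adjusted p = 0.380 over 14349 genes). It rested in part on single libraries: it was -0.22 when shGPR81 replicate 3 was left out and -0.78 when shGPR81 replicate 1 was, with adjusted p of 0.305 to 0.677 over all alternatives (limma). The reads were 37, 40 and 52 in shNT and 40, 36 and 16 in shGPR81, a ratio of 0.677 scaled by depth (95% Clopper-Pearson interval 0.513 to 0.892). Such intervals cover counting error only and are too narrow for a comparison of the groups, since pairs of libraries within a group had chi-square values of 2.37 to 6.30 per gene. The group is therefore written as the libraries labelled shGPR81. For cells with either hairpin, the paper reports lower GPR81 than in shNT cells by RT-qPCR and western blotting. Of the line's 5 mesenchymal markers, all 5 reached 1 FPKM in every group (VIM 3211 to 4443 FPKM), Of 6 genes listed as low or absent in the line, ESR1, PGR and CDH1 were at 0 in every library, while ERBB2 was at 10.6 to 12.6, EPCAM at 5.20 to 6.86 and KRT8 at 132 to 185 FPKM. Of 5 adipocyte markers, ADIPOQ and LEP were at 0 everywhere, and the summed level was 0 to 0.196 FPKM in shNT and 0 to 0.549 in shGPR81. Summed smooth muscle and fibroblast markers were at 1.99 to 2.74 FPKM in shNT and 4.07 to 5.47 in shGPR81. Most of this sum was ACTA2, which was called higher, with a log2 difference of 1.09 ± 0.17 (SE; limma, adjusted p = 0.0124). The other 4 markers of that list had means no higher in shGPR81 than in shNT: MYH11 had means of 0.355 and 0.334 FPKM, DES of 0.0352 and 0.0111 and PDGFRA of 0.00750 and 0.00354 in shNT and shGPR81, and DCN was at 0. Summed leukocyte markers were at 2.57 to 4.51 FPKM in shNT and 1.51 to 2.55 in shGPR81, mostly CD14, with CD3E at 0. CD14 had means of 3.38 and 1.49 FPKM (log2 difference -1.10 ± 0.26 SE, limma, adjusted p = 0.0562). LYZ (0.312 and 0.521) and PTPRC (0 and 0.0143) had higher means in shGPR81. Summed endothelial markers were at 0.141 to 0.178 and 0.0956 to 0.144 FPKM with CDH5 at 0. Among them PECAM1 had a lower mean in shGPR81 (0.107 and 0.0482) and VWF a higher mean (0.0499 and 0.0712). The part of these differences in the results below was not tested.

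In shNT cells the transcripts of the family were dominated by PDE8A and the PDE4 genes. PDE8A, PDE4A, PDE4B and PDE4D together made up 81.8% ± 0.946 (SD, n = 3) of the summed FPKM of the 10 genes, which was 52.6 ± 2.57 FPKM. The 3 PDE4 genes held 51.6% ± 2.21 and PDE8A and PDE8B held 31.3% ± 1.39. PDE3B contributed 2.26% ± 0.330. The order by mean FPKM in shNT was PDE8A (15.9), PDE4D (9.85), PDE4A (9.71), PDE4B (7.52), PDE10A (3.61), PDE7B (2.13), PDE7A (2.07), PDE3B (1.19), PDE8B (0.607) and PDE3A (0.00371). The ranges of neighbours in this order overlapped for PDE4D and PDE4A and for PDE7B and PDE7A, and no other neighbours overlapped.

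**Figure D1:**
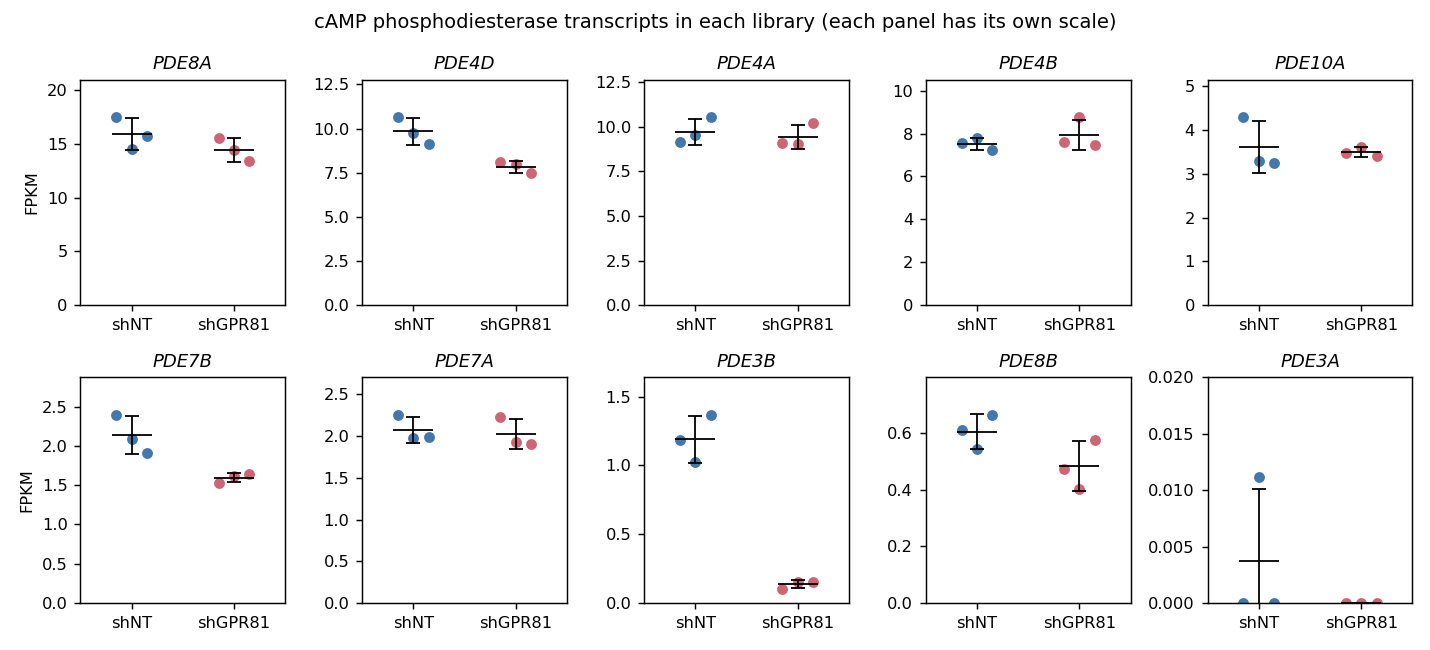
FPKM of each of the 10 genes in the 3 shNT and 3 shGPR81 libraries, in order of the shNT mean, with a scale of its own from 0 in each panel; points are libraries, and the bars are mean ± SD (n = 3). PDE3B sits at 1.02 to 1.37 FPKM in shNT and at 0.104 to 0.151 in shGPR81, and PDE4D and PDE7B are the other genes whose groups do not overlap.

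PDE3 enzymes have high affinity for cAMP and are inhibited by cGMP; PDE3A is the form of heart and platelets, and PDE3B that of fat and liver cells. PDE3B (chr11:14665350-14893590, plus strand, GRCh37; 16 exons in the longest transcript) was at 1.18, 1.02 and 1.37 FPKM in shNT and at 0.104, 0.151 and 0.151 FPKM in shGPR81. Each shGPR81 library was far below each shNT library. The log2 difference was -2.45 ± 0.21 (SE) on the log2(FPKM + 0.1) scale, the 31st lowest of 14349 tested genes. The added 0.1 FPKM is close to the shGPR81 level itself, so this scale understates the difference, and the value ran from -3.05 with 0.01 added to -0.95 with 1 added. The FPKM steps corresponded to 96, 85 and 111 reads in shNT and to 9, 13 and 13 reads in shGPR81. Scaled by depth, the read ratio was 0.114 (95% Clopper-Pearson interval 0.0778 to 0.162, counting error only), or 8.79-fold lower (6.17 to 12.9). PDE3A was listed at 0.0111 FPKM in shNT 2 and at 0 in the other 5 libraries. The PDE3 family had no other transcript at the level that PDE3B had in shNT.

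PDE4 enzymes are specific for cAMP and are the targets of drugs such as rolipram; long forms are controlled by PKA and short forms lack part of that control. PDE4A was at 9.11, 9.52 and 10.5 FPKM in shNT and at 9.08, 9.01 and 10.2 in shGPR81, with a log2 difference of -0.04 ± 0.08 (SE). PDE4B, which inflammatory signals induce in immune cells, was at 7.54, 7.79 and 7.24 FPKM in shNT and at 7.62, 8.76 and 7.48 in shGPR81. The groups overlapped for both genes. For PDE4B the log2 difference was 0.08 ± 0.08 (SE), and the reads summed to 1153 in shNT and 1283 in shGPR81, a depth-scaled ratio of 1.06. PDE4D, the form that binds beta-arrestin at adrenergic receptors, was at 10.6, 9.78 and 9.12 FPKM in shNT and at 8.08, 7.99 and 7.46 in shGPR81. All 3 shGPR81 libraries were below all 3 shNT libraries, while the log2 difference of -0.32 ± 0.08 (SE) was short of the fold threshold for a call. The gene has many start sites over 1553.1 kb (27 annotated transcripts), and the table gives 1 value for the gene, so long and short forms could not be told apart. The sum of the PDE4 genes was 27.1 ± 0.208 FPKM in shNT and 25.2 ± 0.496 in shGPR81 (SD, n = 3).

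PDE7 enzymes are specific for cAMP and insensitive to rolipram. PDE7A, the form known from lymphocytes, was at 2.25, 1.97 and 1.99 FPKM in shNT and at 2.23, 1.93 and 1.91 in shGPR81, with overlapping groups and a log2 difference of -0.03 ± 0.12 (SE). PDE7B, the form known from the striatum of the brain, was at 2.39, 2.09 and 1.92 FPKM in shNT and at 1.53, 1.61 and 1.64 in shGPR81. Its groups did not overlap. The log2 difference was -0.39 ± 0.12 (SE), and the reads summed to 461 in shNT and 363 in shGPR81, a depth-scaled ratio of 0.748. The pair, which overlapped in shNT, was ordered PDE7A above PDE7B without overlap in shGPR81.

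PDE8 enzymes have a very high affinity for cAMP and resist the general inhibitor IBMX. PDE8A was at 17.5, 14.5 and 15.7 FPKM in shNT and at 15.5, 14.4 and 13.4 in shGPR81, with overlapping groups and a log2 difference of -0.14 ± 0.09 (SE). It was the highest of the 10 genes in each of the 6 libraries. PDE8B, the form of the adrenal and thyroid glands, was at 0.611, 0.543 and 0.665 FPKM in shNT and at 0.475, 0.404 and 0.578 in shGPR81. These ranges overlapped, and the log2 difference was -0.28 ± 0.19 (SE). PDE10A, which hydrolyses both cAMP and cGMP and is best known from the striatum, was at 4.29, 3.30 and 3.24 FPKM in shNT and at 3.47, 3.62 and 3.41 in shGPR81. The shGPR81 values lay within the shNT range, with a log2 difference of -0.03 ± 0.13 (SE).

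Of the 9 genes that passed the filter, 1 (PDE3B) was past the call thresholds in the lower direction and 0 in the higher; over all 14349 tested genes, 1.59% were called lower and 0.955% higher (limma, adjusted p under 0.05 and fold above 1.5). Groups without overlap were seen for 3 genes in the lower direction (PDE3B, PDE4D and PDE7B) and 0 in the higher, where 12.7% and 12.9% of all tested genes were without overlap. Since this contrast was used to choose the genes, nothing is read from these counts. The median log2 difference of the 9 genes was -0.14, and that of all tested genes 0.01.

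**Figure D2:**
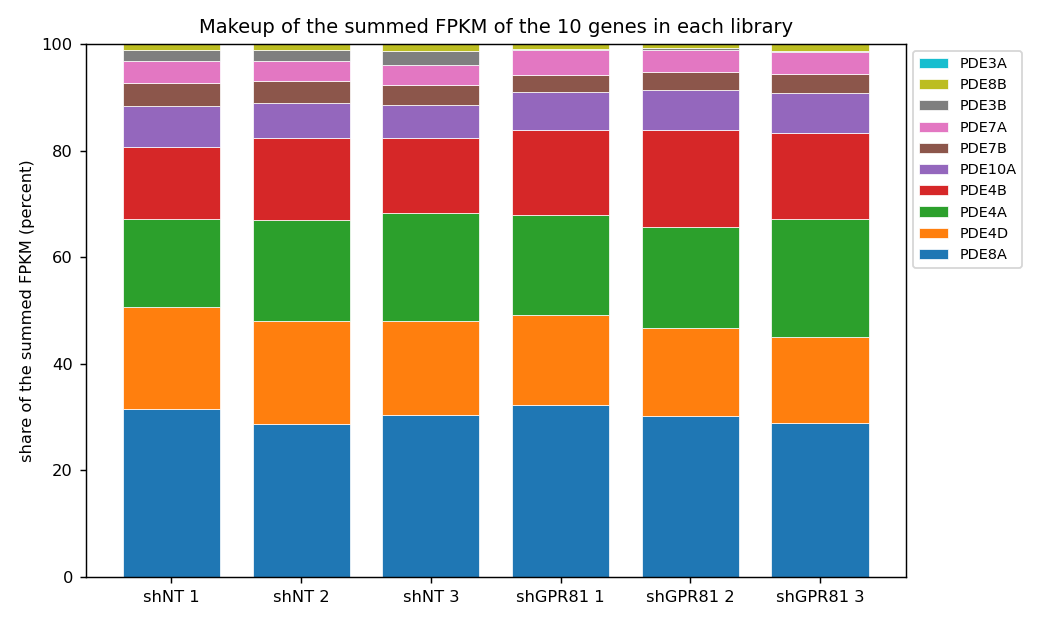
Share of each gene in the summed FPKM of the 10 genes, in percent, as 1 stacked bar per library (3 shNT, 3 shGPR81), ordered from the highest shNT mean at the bottom. PDE8A and the PDE4 genes fill about the same part of each bar (81.8% on average in shNT, 83.7% in shGPR81), and the PDE3B band narrows from 2.26% to 0.286%.

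In shGPR81 libraries PDE3B made up a smaller part of the family. Its share was 0.286% ± 0.0620 against 2.26% ± 0.330 in shNT (SD, n = 3), and it passed from the eighth to the ninth place, below PDE8B. PDE4D held 16.5% ± 0.338 against 18.7% ± 0.952 in shNT, and PDE4B 16.8% ± 1.32 against 14.3% ± 0.948, both without overlap between the groups. The PDE4 share was 53.2% ± 1.54 and the PDE8 share 31.5% ± 1.61, within 1 SD of their shNT values. The summed FPKM was 47.4 ± 1.06 in shGPR81, a ratio of means of 0.901 to shNT, and without PDE3B the ratio was 0.919. Set against PDE3B within each library, PDE4D was 8.41 ± 1.53 times higher in shNT and 60.0 ± 15.7 times higher in shGPR81, and PDE8A was 13.5 ± 1.75 and 111.2 ± 33.8 times higher (SD, n = 3).

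The other 14 genes of the superfamily were set apart from the 10 with earlier results of these data known. Their p-values are therefore not free of that choice. Of these 14 genes, 7 passed the filter, 2 were called higher (PDE2A and PDE5A) and 1 lower (PDE9A). Over all tested genes, 0.955% were called higher and 1.59% lower. PDE2A, which hydrolyses both nucleotides and is stimulated by cGMP, was at 0.9999, 1.42 and 1.18 FPKM in shNT and at 2.38, 2.40 and 2.22 in shGPR81. It rose without overlap, with a log2 difference of 0.92 ± 0.15 (SE; limma, Benjamini-Hochberg adjusted p = 0.0143). In shGPR81 the mean of PDE2A, 2.33 FPKM, stood above that of PDE3B without overlap and above that of PDE7A with overlapping ranges. Without shGPR81 replicate 1, 2 or 3 the adjusted p of PDE2A was 0.0518 to 0.0745 (limma), above the 0.05 threshold, with log2 differences of 0.90 to 0.95.

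PDE5A and PDE9A are specific for cGMP. PDE5A, the target of sildenafil, was at 0.530, 0.625 and 0.459 FPKM in shNT and at 1.0005, 0.981 and 0.967 in shGPR81, a rise of 0.77 ± 0.17 (SE; limma, adjusted p = 0.0440). PDE9A, the form with the highest affinity for cGMP, was at 1.75, 1.58 and 1.54 FPKM in shNT and at 0.950, 0.697 and 1.01 in shGPR81, a log2 difference of -0.82 ± 0.17 (SE; limma, adjusted p = 0.0344). Groups did not overlap for either gene. Both calls were lost without any 1 of the 6 libraries, with adjusted p of 0.0678 to 0.159 for PDE5A and 0.0625 to 0.119 for PDE9A.

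The remaining 4 tested genes were not called. PDE1C, which calcium and calmodulin activate, had 0.258, 0.324 and 0.355 FPKM in shNT and 0.103, 0.134 and 0.177 in shGPR81 (log2 difference -0.80 ± 0.25 SE; limma, adjusted p = 0.138). PDE11A, which hydrolyses both nucleotides, had 0.934 to 1.18 FPKM in shNT and 0.735 to 1.04 in shGPR81 (limma, adjusted p = 0.466). PDE6D, a carrier of prenylated proteins that shares its name with the retinal enzyme, had 19.6 to 21.4 and 23.4 to 25.9 FPKM, with a log2 difference of 0.28 ± 0.06 (SE; limma, adjusted p = 0.0504). PDE6G was at 0 in 2 libraries and at most at 0.225 FPKM (limma, adjusted p = 0.835). The summed FPKM of the 6 cAMP-hydrolysing genes outside the 10 was 2.62 ± 0.176 in shNT and 3.43 ± 0.231 in shGPR81, and that of all 16 was 55.2 ± 2.40 and 50.8 ± 1.22 (SD, n = 3).

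**Figure D3:**
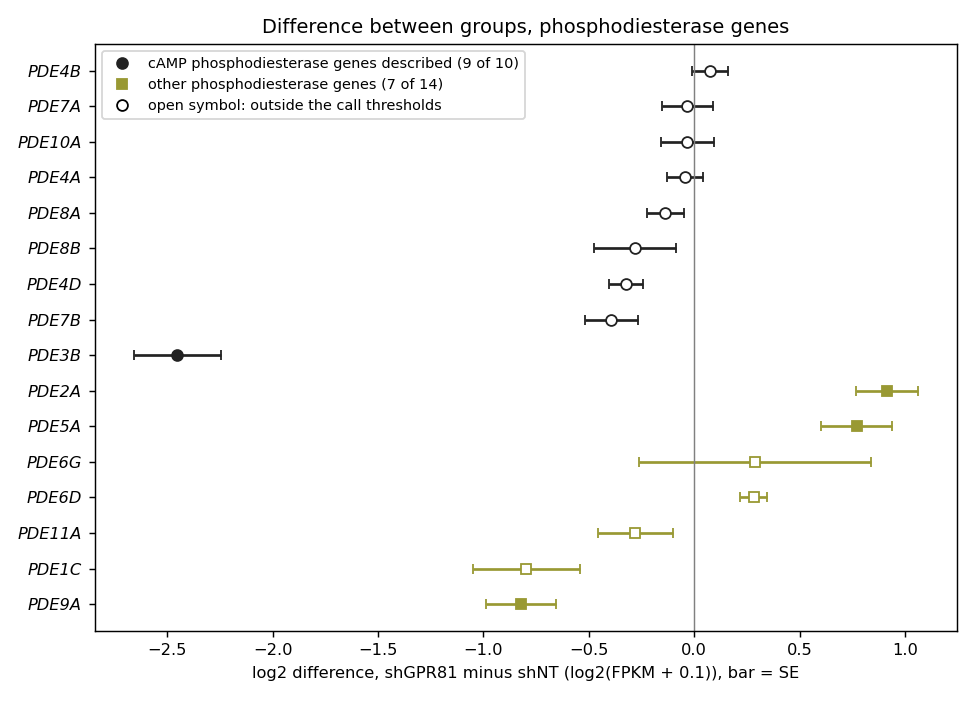
Log2 difference (shGPR81 minus shNT, on log2(FPKM + 0.1)) with its SE for the 9 described genes that passed the filter (circles) and the 7 other phosphodiesterase genes that did (squares); filled symbols are past the call thresholds. PDE3B stands at -2.45, the other 8 described genes lie between -0.39 and 0.08, and PDE2A, PDE5A and PDE9A are the called genes among the squares.

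The rest of the cAMP pathway was given by 8 lists with 86 genes, of which 70 were tested. Of these 70, 1 was called higher and 0 lower (limma, adjusted p under 0.05 and fold above 1.5). Over all tested genes, 0.955% were called higher and 1.59% lower. Nothing is read from these counts or from those of the single lists below. The median log2 difference of the 70 was -0.01, beside 0.01 for all tested genes. The called gene was PKIA, an inhibitor peptide of the PKA catalytic subunit. It was at 3.61, 3.28 and 3.43 FPKM in shNT and at 5.53, 5.30 and 5.53 in shGPR81, without overlap, a log2 difference of 0.65 ± 0.08 (SE; limma, adjusted p = 0.00545).

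Upstream of the phosphodiesterases, 4 of 10 adenylyl cyclases were tested and none was called, with log2 differences from -0.31 (ADCY7) to -0.04 (ADCY3). Of 7 G protein alpha subunits, 6 were tested and none called, with a median of -0.17; GNAS, the stimulatory subunit, was at 633 to 768 FPKM in shNT and 534 to 595 in shGPR81 (log2 difference -0.34 ± 0.08 SE; limma, adjusted p = 0.0631). Among 15 PKA and other effector genes, 12 were tested, with a median of 0.11 and PKIA as the only call. Of 16 anchoring proteins, which hold PKA and phosphodiesterases at sites in the cell, 13 were tested and none was called (-0.10 to 0.26).

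The list of known PDE3B regulators and partners had 16 of 18 genes tested and none called, with a median of 0.00. It includes AKT kinases, which phosphorylate PDE3B; AKT1 and AKT2 had log2 differences of 0.03 and 0.02. PIK3CG, the gamma catalytic subunit of PI3-kinase and a known PDE3B partner, was at 2.75, 2.43 and 2.78 FPKM in shNT and at 3.65, 3.94 and 3.96 in shGPR81 (log2 difference 0.52 ± 0.10 SE; limma, adjusted p = 0.0264), below the fold threshold, and its adaptor genes PIK3R5 and PIK3R6 were at 0 in every library. YWHAB, a 14-3-3 protein, also had an adjusted p of 0.0103 (limma) with a log2 difference of -0.34 ± 0.05 (SE), below the fold threshold. Of 8 PDE4 partners, 8 were tested and none was called, with ARRB1, beta-arrestin 1, at the low end (-0.41 ± 0.10 SE; limma, adjusted p = 0.0606).

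Of the cAMP exporters ABCC4 and ABCC5, none was called (log2 differences -0.01 and 0.11). Of 10 genes that cAMP induces through CREB, 9 were tested and none was called, with a median of -0.12. NR4A2 had the highest difference of these, at 0.741, 0.809 and 1.11 FPKM in shNT and 1.93, 1.59 and 1.34 in shGPR81 (log2 difference 0.81 ± 0.20 SE; limma, adjusted p = 0.0681), and NR4A1 the lowest (-0.33 ± 0.17 SE; limma, adjusted p = 0.359).

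The genes around each of the 10 were examined to see how far along the chromosome the PDE3B difference reached. None of the 10 tested genes nearest to PDE3B was called, and their log2 differences were between -0.28 and 0.18, with a median of -0.04. Among all tested genes, 1.59% were called lower and 0.955% higher, so a lack of calls among 10 genes says little. PSMA1, a proteasome subunit gene annotated 0.2 kb before the start of PDE3B, was at 147.8 ± 3.32 FPKM in shNT and 141.1 ± 4.93 in shGPR81 (SD, n = 3; log2 difference -0.07 ± 0.05 SE; limma, adjusted p = 0.517). CYP2R1, the vitamin D 25-hydroxylase gene 5.4 kb after the end of PDE3B, was at 2.84 ± 0.183 and 2.52 ± 0.571 FPKM (log2 difference -0.19 ± 0.16 SE; limma, adjusted p = 0.615). The CYP2R1 difference was -0.06 without shGPR81 replicate 1 and -0.35 without shGPR81 replicate 2. Levels of both flanking genes overlapped between the groups, while those of PDE3B did not. The cause of the PDE3B difference was not tested.

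Over the 100 neighbour places of the 10 genes, 1 neighbour was called higher and 0 lower (limma), with a median log2 difference of 0.00. The shares called over all tested genes were 0.955% higher and 1.59% lower. The called gene was MYB, a transcription factor gene 632.5 kb from PDE7B, at 0.425 ± 0.0520 FPKM in shNT and 0.984 ± 0.167 in shGPR81 (log2 difference 1.04 ± 0.19 SE; limma, adjusted p = 0.0224). Without shNT replicate 2 or shGPR81 replicate 1 or 2 its adjusted p was 0.0900 to 0.101. The neighbours of PDE10A had the highest median, 0.34, and none was called; C6orf118, CAHM, PARK2 and LINC00602 among them had group means of 0.0589 to 0.206 FPKM.

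**Figure D4:**
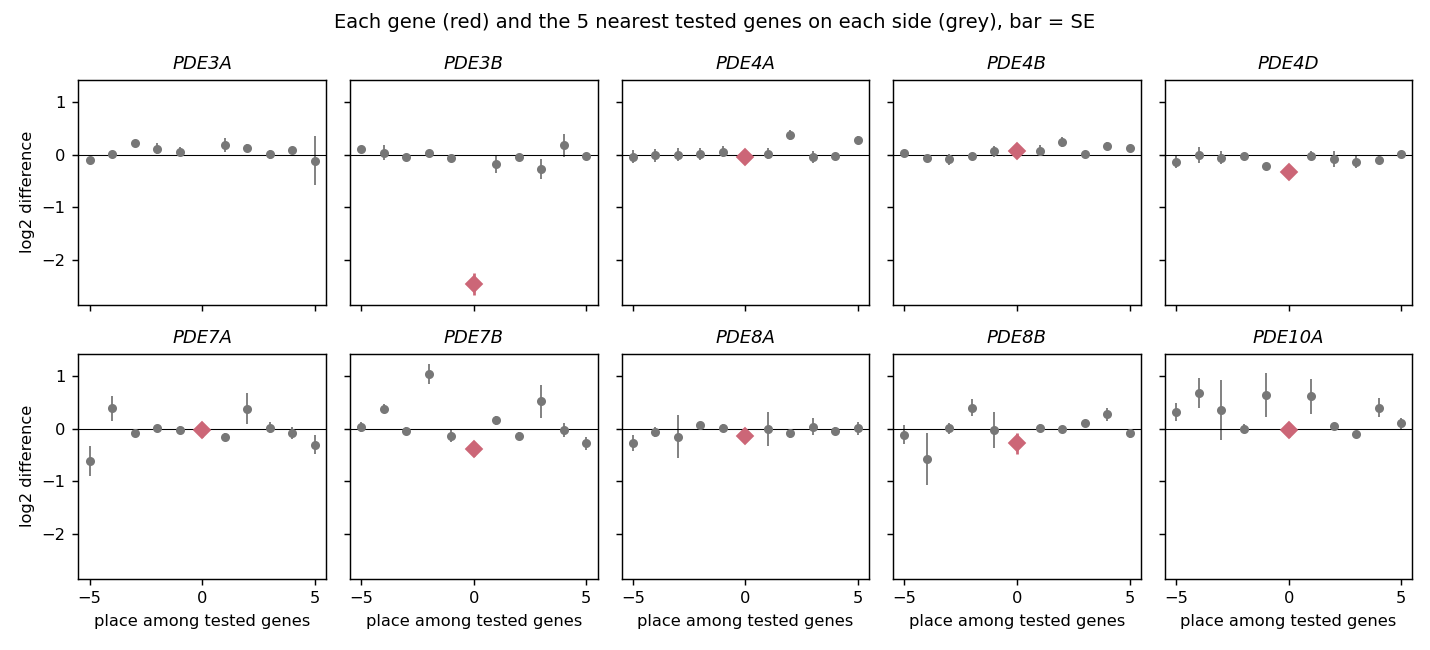
Log2 difference (shGPR81 minus shNT) of each gene (red) and of the 5 nearest tested genes on each side (grey), by their order along the chromosome and not to distance; bars are SE, and PDE3A has no red point because it was not tested. PDE3B lies at -2.45 between neighbours at -0.28 to 0.18, and MYB is the grey point at 1.04 beside PDE7B.

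The profile of PDE3B over the 6 libraries was compared with that of 11677 tested genes whose mean over all libraries reached 1 FPKM, by the distance between log2 values centred on their mean. The nearest was NEO1, a netrin and RGM receptor gene (distance 0.323), at 4.37, 3.71 and 3.95 FPKM in shNT and 0.534, 0.751 and 0.820 in shGPR81. The next were AMPH, amphiphysin (0.466), at 5.97 to 6.56 and 0.798 to 1.20 FPKM, and CADM1, a cell adhesion gene (0.513), at 1.64 to 2.02 and 0.234 to 0.270 FPKM. With 6 libraries in 2 groups, any gene with a group difference of like size lies near, and these 3 genes had log2 differences of -2.37, -2.60 and -2.43.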

How the data were processed

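RNA-seq was measured in 6 MDA-MB-231 libraries (3 shNT, 3 shGPR81; TruSeq Stranded mRNA, single-end 75 bases). Per the labels, the authors used TopHat2 2.0.13, Bowtie2 2.2.3, SAMtools 0.1.19 and Cuffnorm 2.2.1. The labels name the mouse build mm10; the cells are human, and the methods name hg19. The deposited values are FPKM per gene symbol, normalized by the authors; no counts were used here. MIR6723 took 28.1% to 36.2% of the FPKM sum.

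The groups were fitted on log2(FPKM + 0.1) in limma 3.58.1 (R 4.3.3; lmFit, eBayes with trend), for the 14349 genes that reached 0.1 FPKM in 3 or more libraries. Genes were called where the p adjusted by Benjamini-Hochberg was under 0.05 and the fold above 1.5, as in the study. On simulated FPKM for this comparison (14139 genes), 194 of 200 changed genes were recovered, with 5 false calls. All planted changes had the same size, well above the fold threshold and above the differences of PDE2A, PDE5A, PDE9A, PKIA and MYB. They were planted only in genes above a set mean level, which PDE3B, PDE5A and MYB did not reach. The recovery therefore holds for an easier case than these genes. Recovery by size of difference or by FPKM level was not tested, so none is given for the genes named here. Reads were taken from FPKM steps that were whole within a tolerance of 0.0001 reads, rising with the count to at most 0.02. Positions are from GENCODE release 44 on GRCh37, and promoters from RefSeq on GRCh38.p14; 23445 symbols matched 1 locus, 1324 of them by a synonym. Replicates were not duplicate libraries (chi-square per gene 2.37 to 6.30 between libraries of a group).

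The 10 genes and the lists were chosen with earlier results of these data known. The text names all 10, other tested phosphodiesterase genes, HCAR1, called genes of the pathway lists and neighbours, and the 3 profiles nearest to PDE3B. Single genes of lists, neighbours and markers outside this rule were named after their values were seen.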

Additional observations from a re-analysis of the deposited data

How the results depend on the processing

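The settings tried were a replicate block, each library left out, a filter of 1 FPKM or none, pseudocounts of 1 and 0.01, median centring and quantile normalization. The described genes were chosen on this contrast, so their values under these settings are a description and support nothing; the log2 difference of PDE3B ranged from -3.05 to -0.95. With a pseudocount of 1, 142 genes were called lower and 75 higher, 0 other phosphodiesterase genes lower and 1 higher, and 0 genes of the pathway lists and 0 neighbours higher. The replicate block called 197 genes lower and 115 higher; it left 0 other phosphodiesterase genes lower, 1 higher and 0 neighbours higher, with adjusted p (limma) of 0.0795 for PDE5A, 0.0545 for PDE9A and 0.0609 for MYB. Correlations across genes of same-numbered deviations were 0.120, 0.0223 and 0.00577, and 1 or more libraries correlated better with another number. Deviations from a group mean are tied to each other, so this does not settle whether replicate numbers pair the libraries. Without a filter, 0 other phosphodiesterase genes were called lower and 1 higher. The filter of 1 FPKM left 1 of them higher and 0 neighbours, because PDE5A and MYB did not pass it and were not tested. A pseudocount of 0.01 left 1 other phosphodiesterase gene higher. Leaving out each library in turn gave 121 to 256 genes lower and 65 to 152 higher, 0 other phosphodiesterase genes lower and 0 to 1 higher, 1 to 2 pathway genes higher and 0 to 1 neighbours higher. Under this the difference of PDE6G ranged from -0.0886 (without shNT replicate 2) through -0.0415 (without shGPR81 replicate 2) to 0.8082. The differences of PDE4A, PDE7A and PDE10A, all near 0, also changed sign when some libraries were left out (-0.10 to 0.02, -0.10 to 0.03 and -0.10 to 0.09). Apart from fewer libraries or fewer genes tested, the cause of these changes was not tested.

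Shares of the summed FPKM in shGPR81 and over all 6 libraries were 0.286% and 1.28% for PDE3B, 16.8% and 15.5% for PDE4B, 16.5% and 17.6% for PDE4D, 4.27% and 4.10% for PDE7A, and 3.37% and 3.71% for PDE7B. For PDE8B the shGPR81 share was 1.03%.

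Each group has 3 libraries, the deposited values are FPKM without counts, and genes below 1 FPKM rest on few reads, as do the 9 to 13 reads of PDE3B in shGPR81. A gene value sums isoforms, so a change of isoform within a gene was not measured, and neither protein, enzyme activity nor cAMP was measured in these libraries.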
